A study of Mus musculus with 6 samples.

Results

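Endothelial marker genes were followed across 6 primary cultures of mouse dorsal root ganglia, the clusters of sensory neurons and their glia beside the spinal cord. The genes were 10 rows of the count table taken by symbol from a given list: Cdh5, Pecam1, Tek, Tie1, Kdr, Emcn, Cldn5, Esam, Eng and Vwf. All 10 were found among the 45703 genes of the table. They were chosen by name and not by their values, but with earlier results of these data known. All 6 samples formed a single group: wild-type C57BL/6 mice of 4 to 6 weeks, enzymatically dissociated ganglia, poly-L-lysine dishes, and 7 days of culture in 10% serum, the growth factors EGF and FGF being present at 10 ng/ml each. Each sample held RNA of 2 dishes, and the series calls the samples biological replicates without saying how many animals gave each. With no second group, the comparisons were between replicates and between genes, and a test across replicates measures only the spread between these samples.

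Endothelial cells line blood and lymph vessels, and ganglia are densely supplied by capillaries. Cells of the lining are held together by VE-cadherin, the product of Cdh5, by PECAM-1, by ESAM and by the tight junction protein claudin-5. They sense growth factors through the VEGF receptor encoded by Kdr and through the TIE receptors encoded by Tek and Tie1. Endoglin, the product of Eng, is a co-receptor for BMP and TGF-beta ligands, Emcn encodes a sialomucin of the vessel surface, and Vwf encodes the clotting protein stored in endothelial granules. Several of these genes are also known from other cells: Eng from fibroblasts and macrophages, Pecam1 from leukocytes and platelets, and Vwf and Esam from megakaryocytes.

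The libraries held 20070639 to 22968642 counts, so 3 counts, taken as the detection floor, corresponded to 0.131 to 0.149 CPM (a gene's count over the library's total, scaled to a total of 1000000). The members together took 383 counts in replicate 1, 690 in replicate 2, 979 in replicate 3, 1302 in replicate 4, 3584 in replicate 5 and 940 in replicate 6. Counts of all 10 members were whole numbers in every library, whereas 13.4% to 14.7% of all table entries were fractional. The labelled tissue was checked against markers: all 8 glial lineage genes and all 9 neuron genes of the lists used were above 3 counts, with summed levels of 5521 to 8039 CPM and 1001 to 2165 CPM. Replicate 5 was the highest library for every member. A level in such a bulk culture cannot tell fewer endothelial cells from less RNA per cell.

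All 10 endothelial markers were detected, and all 10 had their highest level in replicate 5. Over all 20726 genes that exceeded 3 counts in at least 1 library, replicate 5 was the highest for 29.3%. In 8 of the 10 members the gap from replicate 5 to the next library, as a share of the range, passed the 95% critical value of Dixon's outlier test; 4.12% of the 20726 genes passed it with replicate 5 highest and 7.69% with any library highest. Replicate 1 was the lowest library for 5 members (Cdh5, Tek, Emcn, Esam and Eng), beside 25.9% of all genes. The summed CPM of the members was 16.7, 31.4, 45.2, 64.9, 171 and 44.9 in replicates 1 to 6. Replicate 5 was therefore 2.64-fold above the next library, replicate 4, and 10.3-fold above the lowest, replicate 1. The other 5 libraries spanned 3.89-fold. Tested across all genes, 7 of 7 members that passed the filter on low counts varied beyond counting noise (chi-square test, Benjamini-Hochberg adjusted), against 76.3% of the 14998 genes tested. With that share among all genes, the call alone does not set the members apart. The filter asked for about 10 counts in every library and left out Tek, Tie1 and Cldn5. With no filter, all 10 members were called, against 50.2% of 26854 genes.

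**Figure D1:**
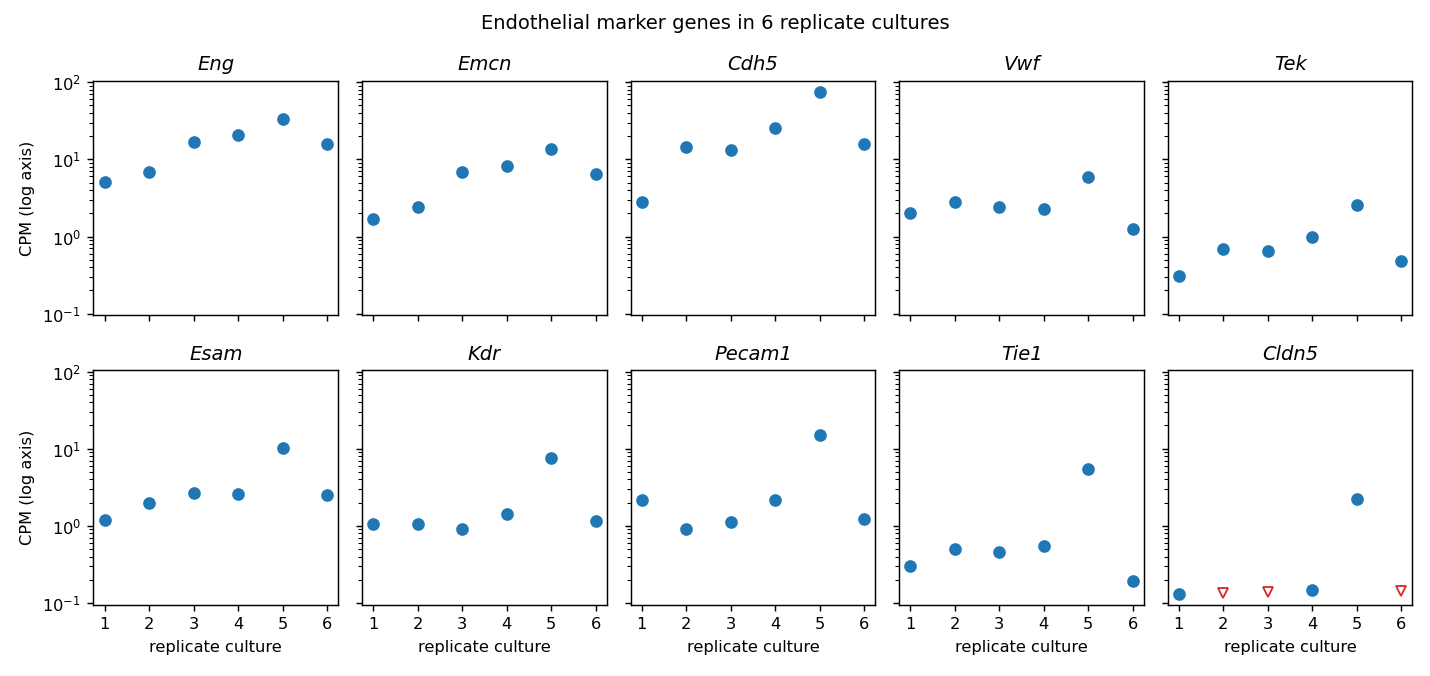
Level of each endothelial marker gene in CPM (log axis) in replicate cultures 1 to 6, 1 point per culture; open triangles mark libraries with 0 counts and are drawn at the floor of 3 counts. All 10 genes were highest in replicate 5, and Cldn5 was at 0 in replicates 2, 3 and 6.

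The spread between replicates was wider in the members than in most genes, much of it through replicate 5; this is a description, with no test. The 7 tested members had a median ratio of highest to lowest replicate of 8.18, beside 1.38 for all genes tested. Their coefficient of variation over the 6 cultures had a median of 94.3%, beside 12.1% for all genes tested. Without replicate 5 the members' medians were a ratio of 2.41 and a coefficient of variation of 40.1%, beside 1.29 and 10.3% for all genes tested. These medians are not matched for abundance, and counting error widens the spread of genes with few counts. Kdr, for example, had 20 to 29 counts per library outside replicate 5. A test of variation beyond genes of similar abundance (edgeR quasi-likelihood, intercept only) called 0 of 14998 genes, members included. An unadjusted p-value under 0.05 was found for 809 genes, or 5.39%. The reference of this test was fitted to these same genes, so a share near 0.05 is largely set in advance. Unadjusted, 6 of the 7 members were under that threshold and Vwf was not, with edgeR adjusted p-values of 0.844 to 0.958 for the 7. A p-value that misses the threshold does not show that the members varied like other genes.

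**Figure D2:**
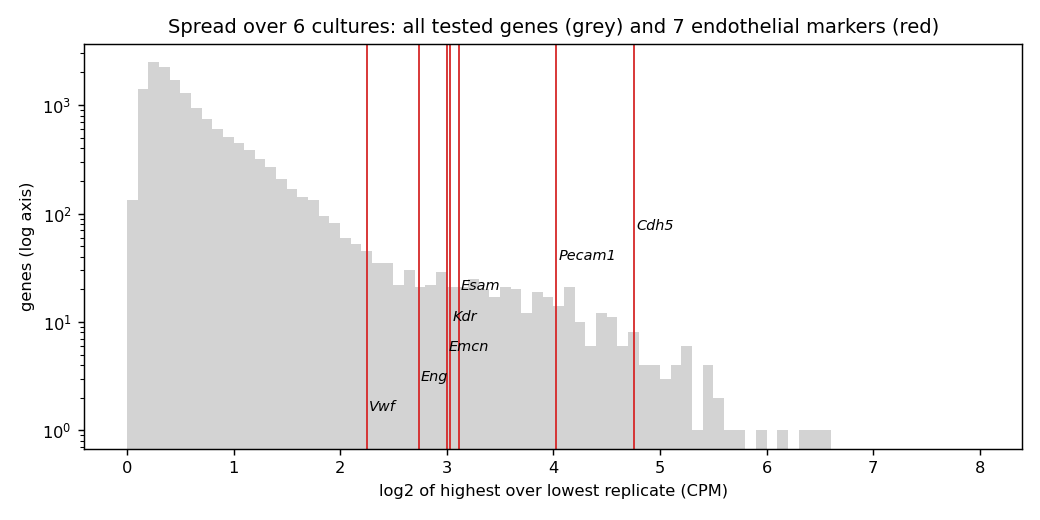
Number of genes (log axis) by the log2 ratio of the highest to the lowest replicate in CPM, for all tested genes with a count in every library (grey), with the 7 tested endothelial markers as red lines. The markers lie far right of the bulk, with ratios from 4.77 for Vwf to 27.0 for Cdh5, beside a median of 1.38.

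The adhesion genes of the endothelial junction came first by role, and Cdh5 was the most abundant of them. Cdh5 (chromosome 8, 104101613 to 104144504, GRCm38.p6) was at 2.79, 14.3, 13.1, 25.6, 75.3 and 15.8 CPM in replicates 1 to 6, a mean of 24.5 ± 25.9 (SD, n = 6). Replicate 1 was lowest by far, replicates 2, 3 and 6 lay close together, and replicate 5 was 2.94-fold above replicate 4. Without replicate 5, Cdh5 still spanned 9.19-fold between replicates 1 and 4.

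Pecam1 (chromosome 11, 106654213 to 106715281) followed another order. It was at 2.18, 0.911, 1.11, 2.19, 14.9 and 1.24 CPM in replicates 1 to 6. Replicate 5 exceeded the next library 6.78-fold, while the other 5 libraries stayed within 2.41-fold of each other. Replicate 1, the lowest library for Cdh5, was level with replicate 4 for Pecam1.

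Esam, an immunoglobulin-type adhesion molecule of tight junctions (chromosome 9, 37528089 to 37538319), was at 1.18, 2.00, 2.63, 2.59, 10.2 and 2.49 CPM. Its highest library was 3.87-fold above the next, and the others spanned 2.24-fold.

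Cldn5, the claudin of tight vessel barriers (chromosome 16, 18776847 to 18778262), was nearly confined to a single library among the 6. It had 3, 0, 0, 3, 47 and 0 counts in replicates 1 to 6, which is 2.25 CPM in replicate 5 (exact Poisson 95% interval 1.65 to 2.99). The ratio of replicate 5 to replicate 4 was 15.0, with an exact interval of 4.84 to 75.4. Against replicates 2, 3 and 6, where no count was found, replicate 5 was at least 16.4-fold, 16.2-fold and 15.7-fold higher, taking 3 counts per library as the floor. These intervals cover counting error only, since PCR copies are not independent molecules.

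Among the growth factor receptors, levels outside replicate 5 were low. Kdr (chromosome 5, 75932827 to 75979072) was at 1.04, 1.05, 0.923, 1.44, 7.55 and 1.15 CPM. Replicate 5 was 5.22-fold above the next library, and the other 5 lay within 1.57-fold. Tie1 (chromosome 4, 118471191 to 118489849), an orphan partner of the receptor encoded by Tek, was at 0.305, 0.501, 0.462, 0.548, 5.45 and 0.191 CPM. That put replicate 5 at 9.94-fold above the next, the largest such ratio among the members with counts in every library. Tek (chromosome 4, 94739086 to 94874976), the receptor for angiopoietins, was at 0.305, 0.683, 0.646, 0.996, 2.53 and 0.478 CPM, with a ratio of 2.54 to the next library.

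Eng and Emcn formed a pair with a graded pattern. Eng (chromosome 2, 32646595 to 32682669) was at 5.05, 6.83, 17.0, 20.8, 33.6 and 15.9 CPM, and Emcn (chromosome 3, 137341062 to 137431069) at 1.70, 2.41, 6.88, 8.27, 13.6 and 6.45 CPM. Both rank the libraries 1, 2, 6, 3, 4 and 5 from low to high. This order was not particular to the pair. The macrophage genes Cd68, Adgre1 and Itgam and the fibroblast gene Dpt had the same one. Cd68, for example, was at 3.57, 6.33, 22.7, 26.0, 34.2 and 9.51 CPM in replicates 1 to 6. Not all macrophage genes shared the order, C1qa being highest in replicate 4. The part of such cells in the levels of Eng and Emcn was not tested. Their highest library was only 1.62-fold and 1.64-fold above the next. Eng overlaps the protein-coding gene Fpgs on the opposite strand, which had 247 to 410.5 counts per library. The strand setting of the counting is not given in the sources used here, so reads of the overlap may be assigned to either.

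Vwf (chromosome 6, 125552948 to 125686679) had the smallest spread of the 10 over all 6 libraries. It was at 2.00, 2.78, 2.45, 2.29, 5.92 and 1.24 CPM in replicates 1 to 6, and its coefficient of variation was 58.4%. Without replicate 5 it was 27.0%, and Kdr then had the smallest, 17.6%. Replicate 6 was its lowest library, as it was for Tie1 among the genes with counts everywhere.

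Leaving out replicate 5 separated the members into those that still varied and those that did not pass. In a chi-square test of the other 5 libraries with no filter (this alternative was chosen after seeing the data) 6 of 10 members varied beyond counting noise, against 42.5% of 26395 genes. These were Cdh5, Eng, Emcn, Pecam1, Esam and Vwf. Kdr, Tie1, Tek and Cldn5 did not pass, with chi-square adjusted p-values of 0.65, 0.485, 0.131 and 0.122. These 4 genes had 0 to 29 counts in each of the 5 libraries, and Tek spanned 3.27-fold and Tie1 2.87-fold among them, so a missed threshold does not show that their levels were equal.

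Levels of single genes were ranked per kilobase of combined exon length. The shares of the summed CPM and the sums of lists given below are in CPM, and so also reflect exon length. Cdh5 led with 6.06 ± 6.42 CPM per kb, followed by Eng with 4.63 ± 2.90, Emcn with 4.43 ± 2.92, Esam with 1.88 ± 1.78 and Pecam1 with 1.12 ± 1.64 (SD, n = 6). Tie1, Vwf, Cldn5, Kdr and Tek followed at 0.320 ± 0.532, 0.307 ± 0.179, 0.297 ± 0.633, 0.285 ± 0.342 and 0.191 ± 0.165 CPM per kb. Of the 9 neighbouring pairs in this order, 3 kept it in all 6 libraries: Eng above Emcn, Emcn above Esam, and Pecam1 above Tie1. Cdh5 exceeded Eng in 3 of 6 libraries, a mean difference of 1.43 ± 3.97 CPM per kb that lies within its spread. Esam exceeded Pecam1 in 5 of 6, replicate 1 being the exception.

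Neighbours among the lower 5 genes were not separable in level. Tie1 exceeded Vwf in 1 of 6 libraries, Vwf exceeded Cldn5 in 5, Cldn5 exceeded Kdr in 1 and Kdr exceeded Tek in 3, and each mean difference was smaller than its SD. Over all pairs of these 5 genes, Vwf above Tek was the only order kept in all 6 libraries, with a mean difference of 0.116 ± 0.0559 CPM per kb (SD, n = 6). Without replicate 5 the means became 3.67 ± 1.91 CPM per kb for Eng, 3.54 ± 2.01 for Cdh5 and 3.48 ± 1.97 for Emcn (SD over the other 5 libraries), so the lead of Cdh5 rests on that library. Esam was then at 1.17 ± 0.329, Pecam1 at 0.458 ± 0.184, Vwf at 0.238 ± 0.0640, Kdr at 0.146 ± 0.0257, Tek at 0.126 ± 0.0525 and Tie1 at 0.103 ± 0.0384 CPM per kb. Cldn5 had the lowest mean of the 10 over these libraries, 0.0396 ± 0.0544 CPM per kb. Over all 45 pairs of members, 32 kept 1 order in every library.

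**Figure D3:**
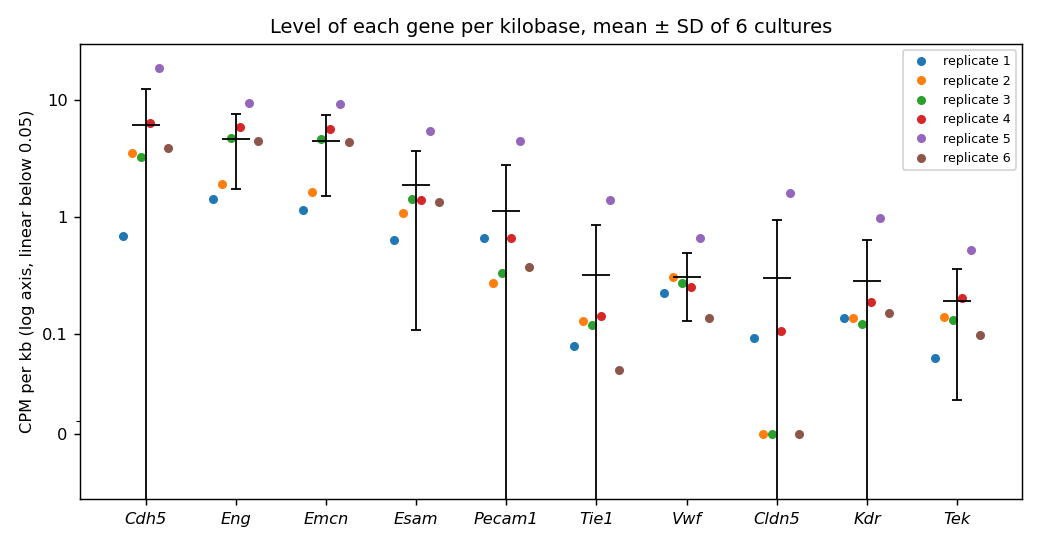
Level of each endothelial marker gene in CPM per kilobase of exon (log axis, linear below 0.05), with 1 coloured point per replicate and the mean ± SD of 6 cultures in black; bars that reach below 0 leave the axis. Cdh5, Eng and Emcn lie above the rest, and replicate 5 is the highest point of every gene.

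Of 8 pairs of markers compared within each library, Emcn and Eng kept a nearly fixed proportion, and the others ranged 2.40-fold to 12.2-fold. The ratio of Emcn to Eng per kb was 0.813, 0.855, 0.979, 0.963, 0.976 and 0.980 in replicates 1 to 6, a range of 1.21-fold, while Eng alone spanned 6.66-fold and Emcn 7.99-fold. Cdh5 to Pecam1 gave 1.06, 12.9, 9.76, 9.64, 4.18 and 10.5, a range of 12.2-fold. Replicate 1 thus held nearly equal levels per kb of these 2 junction genes, and replicates 2, 3, 4 and 6 held 9.64-fold to 12.9-fold more Cdh5.

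Cdh5 to Kdr ranged from 5.08 in replicate 1 to 33.7 in replicate 4. Tek to Tie1 was lowest in replicate 5, at 0.367, and highest in replicate 6, at 1.97. As a share of the summed member CPM, Cdh5 took 16.7% in replicate 1 and 45.4% in replicate 2, Eng took 19.6% in replicate 5 and 37.6% in replicate 3, and Pecam1 took 13.1% in replicate 1 and 2.45% in replicate 3. Replicate 1, with the fewest counts of the 10 members together, had the largest shares of Pecam1, Kdr, Esam and Vwf and the smallest share of Cdh5.

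**Figure D4:**
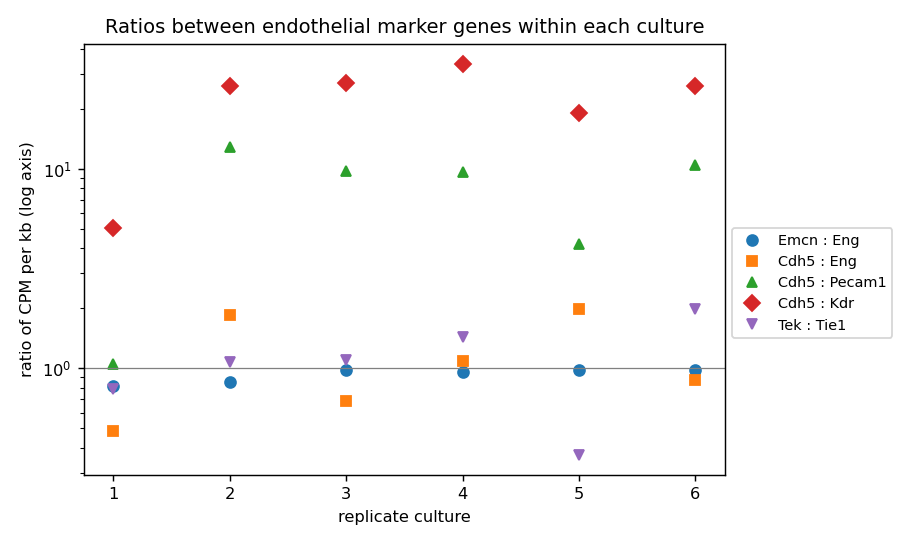
Ratio of CPM per kb between pairs of endothelial marker genes within each replicate culture (log axis). Emcn to Eng stays between 0.813 and 0.980, while Cdh5 to Pecam1 moves from 1.06 in replicate 1 to 12.9 in replicate 2.

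Upstream sequences are shown for the pair with the most constant ratio of the 8 pairs examined, Eng and Emcn, and for the 2 members with the largest gap between the highest library and the next, Tie1 and Cldn5. They were taken from RefSeq's GRCm38.p6 promoter table, which held 6 of the 10 members (Eng, Emcn, Tek, Tie1, Kdr and Cldn5), and are given 5′ to 3′ on the gene's strand up to the annotated gene start. Factors of the ETS family, among them ERG and FLI1, bind sites around the core GGAA and are well known for their role at endothelial genes. Capitals mark GGAA on either strand (TTCC on the strand shown). The windows are chr2:32646345-32646594 (+) for Eng, chr3:137340828-137341061 (+) for Emcn, chr4:118489850-118490099 (-) for Tie1 and chr16:18776597-18776846 (+) for Cldn5.
Eng upstream sequence: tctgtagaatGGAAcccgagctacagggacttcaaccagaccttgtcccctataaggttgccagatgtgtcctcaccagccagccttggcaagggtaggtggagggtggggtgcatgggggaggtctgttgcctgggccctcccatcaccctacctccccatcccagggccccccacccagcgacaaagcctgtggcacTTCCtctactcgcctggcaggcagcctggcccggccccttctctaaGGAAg
Emcn upstream sequence: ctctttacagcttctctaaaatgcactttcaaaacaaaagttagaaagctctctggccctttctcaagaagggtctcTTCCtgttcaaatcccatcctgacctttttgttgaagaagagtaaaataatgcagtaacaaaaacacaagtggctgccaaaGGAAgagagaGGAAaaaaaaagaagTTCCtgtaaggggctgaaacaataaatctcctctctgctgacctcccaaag
Tie1 upstream sequence: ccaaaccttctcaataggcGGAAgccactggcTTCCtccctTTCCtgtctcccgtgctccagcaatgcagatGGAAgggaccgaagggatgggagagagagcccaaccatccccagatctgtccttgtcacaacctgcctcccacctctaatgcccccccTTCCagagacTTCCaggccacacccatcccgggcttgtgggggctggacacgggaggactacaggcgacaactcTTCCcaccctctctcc
Cldn5 upstream sequence: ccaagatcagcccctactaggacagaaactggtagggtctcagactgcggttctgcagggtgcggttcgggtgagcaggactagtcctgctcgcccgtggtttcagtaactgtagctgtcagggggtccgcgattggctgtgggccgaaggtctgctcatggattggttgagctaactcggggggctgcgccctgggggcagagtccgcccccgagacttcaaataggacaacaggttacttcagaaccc

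The core GGAA matched 3 times in the Eng window, 4 times in that of Emcn, 7 times in that of Tie1 and 0 times in that of Cldn5. It was found in 5 of the 6 members' windows of 250 bases, and in 93.4% of 27025 promoters of the same length. The longer AGGAAG, which contains the core, was found in 3 of 6 members (2 matches each in Eng and Emcn and 1 in Tie1) and in 29.2% of all promoters. The letters AGATAA, bound by factors of the Gata family, were in 0 of 6 members and 10.3% of promoters. A SOX core, with the letters ACAAT, was in 2 of 6 members and 28.3% of promoters, and all motifs were searched on both strands. A match describes letters in a short window and not a bound site. Of the ETS factor genes, Fli1 and Erg alone were examined. Fli1 was at 0.174, 1.18, 2.26, 3.14, 6.97 and 0.717 CPM, and Erg at 0.392, 0.273, 0, 0.299, 2.05 and 0.0478 CPM in replicates 1 to 6.

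In a list of 28 further endothelial genes, 25 had their highest level in replicate 5, beside the 29.3% of all genes, and 10 of the 11 that passed the filter varied beyond counting noise, beside 76.3% of all genes tested, with Rasip1 the exception (chi-square adjusted p = 0.0745). Their summed CPM was 37.2, 44.6, 60.1, 67.3, 181 and 46.4 in replicates 1 to 6. Cd93, a surface lectin of endothelium and myeloid cells, was at 2.44 to 38.4 CPM and Cd34, a sialomucin of vessels and stem cells, at 2.79 to 19.0 CPM, both highest in replicate 5. Egfl7, a secreted matrix protein gene of vessels, was at 2.64 to 11.8 CPM and Calcrl, a receptor gene for adrenomedullin, at 1.04 to 20.4 CPM.

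Several of these genes had few counts outside replicate 5. Gpihbp1, the capillary anchor of lipoprotein lipase, had 0, 0, 0, 2, 56 and 0 counts. Aplnr, the apelin receptor, had 3, 4, 2, 5, 86 and 0 counts, and Robo4, a vessel stabilising receptor, had 18, 6, 4, 1, 95 and 5. The transcription factor gene Sox18 had 4, 8, 2, 9, 49 and 0 counts. Other genes with few counts had a smaller gap: Clec14a had 17, 9, 11, 10, 20 and 4 counts and Sox7 13, 13, 18, 21, 38 and 14. The gap from the highest library to the next passed the critical value of Dixon's test in 15 of the 28 genes, beside 7.69% of all genes. By contrast Ramp2, Podxl and Tal1 were highest in replicates 2, 3 and 4. Ramp2 and Podxl spanned 2.89 to 5.31 CPM and 5.63 to 9.46 CPM, and Tal1 had 1, 3, 4, 9, 8 and 5 counts.

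The ligands of the VEGF and TIE receptors included 2 abundant genes, Vegfa and Angpt2, and 6 of 6 tested ligands of the 8 listed varied beyond counting noise, beside 76.3% of all genes tested. Angpt2, an antagonist or context-dependent ligand of the Tek product, was at 132.7 ± 38.4 CPM and lowest in replicate 5, at 85.9 CPM. Angpt1, the activating ligand, was at 4.21 to 26.6 CPM and highest in replicate 5. Per kb, Angpt2 stood at 37.3 ± 10.8 and Tek at 0.191 ± 0.165 CPM per kb (SD, n = 6). Vegfa was at 43.0, 37.8, 50.6, 60.6, 99.4 and 47.2 CPM, the lymphatic growth factor gene Vegfc at 0.522 to 6.50 CPM, and Vegfb at 9.23 to 13.8 CPM with no high value in replicate 5.

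Of the other VEGF receptors, Flt4 and Flt1 also peaked in replicate 5. Flt4, the receptor for the Vegfc product, was at 0.348, 0.592, 0.508, 0.847, 6.45 and 1.10 CPM, which is 5.86-fold above the next library. Flt1, a decoy-like VEGF receptor, was lowest in replicate 1, at 2.39, 4.78, 11.9, 9.17, 20.1 and 10.3 CPM. The co-receptors Nrp1 and Nrp2, which neurons and glia also express, were at 241 ± 45.2 and 109 ± 28.7 CPM, and Nrp2 was lowest in replicate 5. Ptprb, the phosphatase that restrains TIE receptors and VE-cadherin, was at 0.956 to 5.40 CPM and highest in replicate 5.

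The partners of endoglin were mostly abundant, with a spread near that of all genes tested. Acvrl1, the type I receptor that endothelial endoglin works with, was at 34.8 to 52.4 CPM, and the type II receptor gene Bmpr2 at 229 to 257 CPM. The ligand genes Gdf2 and Bmp10 had 0 counts in all 6 libraries. Of 17 tested genes in this list 16 varied beyond counting noise, beside 76.3% of all genes tested. Their median ratio of the highest library to the next was 1.07, the same as for all genes tested. From the highest to the lowest library their median ratio was 1.46, beside 1.38 for all genes tested. The target genes Id1 and Smad6 were at 8.84 to 22.5 CPM and 3.40 to 11.6 CPM and highest in replicate 5. The target genes Id2 and Id3 were highest in replicates 6 and 2, at 113 and 122 CPM. Of the 17 detected genes of the list, 6 were highest in replicate 5, a share near the 29.3% of all genes.

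Partners of the junction proteins were also abundant. The catenin genes Ctnnb1, Ctnna1 and Ctnnd1, whose products bind cadherins in most cell types, were at 744 ± 59.5, 1055 ± 174 and 592 ± 27.7 CPM. Tjp1, a scaffold under claudins, was at 236 ± 7.91 CPM (SD, n = 6). The tight junction gene Ocln had at most 6 counts in any library, and Cldn3 had 0 in all. In this list 12 of 13 tested genes varied beyond counting noise, beside 76.3% of all genes tested, and 8 of the 15 above 3 counts were highest in replicate 5, beside 29.3% of all genes.

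In the granules that store von Willebrand factor, Selp, encoding an adhesion receptor that platelets share, was at 0.0871 to 1.34 CPM. Cd63, a membrane protein of these and of many other granules, was at 596 ± 53.6 CPM with replicate 1 highest. Edn1, encoding the constrictor peptide endothelin, was at 1.83, 1.96, 3.42, 2.94, 4.78 and 3.49 CPM. In this list 7 of 8 tested genes varied beyond counting noise, a share near the 76.3% of all genes tested.

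Vessel type markers ranged from absent to abundant. Of the arterial genes, Dll4 had 11, 8, 5, 5, 84 and 0 counts and Gja5 1 to 17 counts, whereas Efnb2 and Hey1, which glia can express, were at 60.9 ± 11.8 and 17.9 ± 2.82 CPM. Of the venous genes, Nr2f2 was at 208 ± 16.3 CPM and Ackr1 at 2.87 to 9.53 CPM, with replicate 5 the lowest library for Ackr1. Ephb4, at 28.2 to 41.3 CPM, and Aplnr were highest in replicate 5, 2 of the 4 genes of the list. Of the lymphatic genes, Mmrn1 had 0 counts in all libraries, Lyve1 6 to 21 counts and Prox1 23 to 69 counts with replicate 1 highest. The lymphatic genes Pdpn and Flt4 were at 7.92 to 66.4 CPM and 0.348 to 6.45 CPM. Both of these and Lyve1 were highest in replicate 5, 3 of the 4 detected genes of the list, beside 29.3% of all genes. The capillary gene Car4 had at most 1 count, and Cd36, a fatty acid receptor gene that macrophages share, was at 4.53 to 66.4 CPM and highest in replicate 5. Rgcc, another capillary gene, was at 6.14 to 10.4 CPM and highest in replicate 2. Of the 3 detected genes of this list, 2, Cd36 and Gpihbp1, were highest in replicate 5, beside 29.3% of all genes.

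Markers of other cells were highest in replicate 5 as well, in part. The 10 fibroblast genes summed to 3369, 6217, 4674, 7905, 15060 and 4984 CPM, and the 12 mural genes, of pericytes and smooth muscle, to 309, 709.9, 1102, 1184, 2053 and 1257 CPM. Of these, 9 of 10 and 8 of 12 were highest in replicate 5, beside 29.3% of all genes above 3 counts in at least 1 library. The 12 macrophage genes summed to 21.9, 43.6, 173.9, 209, 241 and 60.2 CPM, with 8 of 12 highest in replicate 5, beside the same 29.3%. Glial lineage genes summed to 5521 CPM in replicate 5 and to 6532.5 to 8039 CPM elsewhere, and 0 of 8 were highest there. Of the platelet and megakaryocyte genes, Gp9 and Gp1ba had at most 3 counts in every library, Pf4 had 1 to 21 counts and Ppbp at most 6. The list's sum lay between 15.9 and 19.9 CPM, of which Gp1bb gave a mean of 14.1 and Itga2b of 3.23 CPM. All genes of the fibroblast, mural and macrophage lists were above 3 counts in at least 1 library. The part of these cells in the levels of the endothelial markers was not tested.

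**Figure D5:**
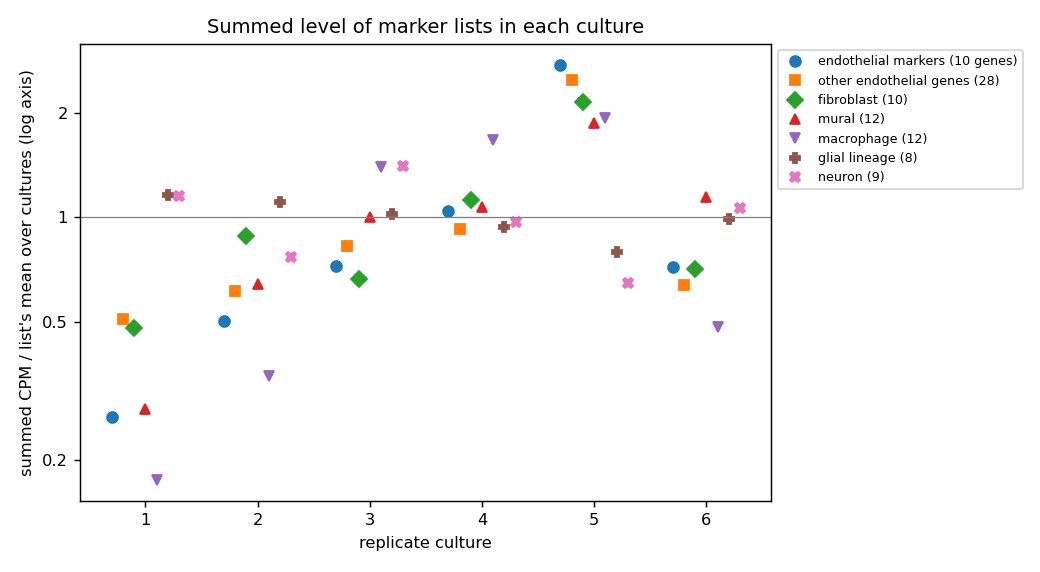
Summed CPM of each marker list divided by its own mean over the 6 cultures (log axis), by replicate. Endothelial markers, other endothelial genes, fibroblast, mural and macrophage genes were highest in replicate 5, where glial lineage and neuron genes were lowest.

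Set against those lists within the same library, the endothelial markers ranked the libraries differently for each list. The summed member CPM was 0.495%, 0.505%, 0.967%, 0.821%, 1.14% and 0.902% of the fibroblast sum in replicates 1 to 6. As a share of the mural sum it was 3.58% to 8.34%, lowest in replicate 6 and highest in replicate 5. As a share of the macrophage sum it was 76.0%, 72.0%, 26.0%, 31.1%, 71.0% and 74.6%, so replicates 3 and 4 held fewer member counts for their macrophage counts. Against the glial lineage sum it ranged from 0.207% in replicate 1 to 3.10% in replicate 5.

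The genes most like the members over the 6 libraries were found by the root mean square difference between profiles, a profile being log2(CPM + 0.1) minus its mean over replicates. Among 14945 genes with a mean CPM of at least 1, the 10 nearest were Olfr1033, Kcnk2, Epha3, Atp6v0a4, St8sia4, Cd34, Tiam1, Hmga2-ps1, Ctla2a and Slfn10-ps, with differences of 0.11 to 0.27 log2 units; the median over all genes was 0.996. Kcnk2, a potassium leak channel gene, was at 2.83, 3.96, 3.79, 6.13, 18.4 and 3.01 CPM. Cd34 was the only one of them in the endothelial lists. Olfr1033, at 0.823 to 7.78 CPM, and Slfn10-ps had fractional counts in all 6 libraries, so their values depend on how the counting divided reads. Without replicate 5, 0 of these 10 genes were again among the nearest, so the likeness rests on that library.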

How the data were processed

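RNA of 6 cultures was sequenced from stranded poly-A libraries (500 ng of total RNA, RNA integrity of at least 8.7, 15 PCR cycles), per the labels' protocols. The table deposited by the authors holds estimated counts per gene, unscaled and partly fractional, and a combined exon length. The submitters' processing notes name bcl2fastq 2.20.0.422, cutadapt 2.5, STAR 2.7.2b, featureCounts 1.6.4 and GRCm38.p6; strand and multi-mapping settings are not given in the sources used here. All 45703 gene identifiers matched RefSeq's GRCm38.p6 table, and coordinates count from 1. The 6 count columns carry the samples' descriptions, and 0 other per-sample columns were present.

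CPM is a gene's count over its library's total, scaled to a total of 1000000. For tests, counts were rounded and scaled by TMM (edgeR 4.0.16, R 4.3.3; factors 0.977 to 1.02) after filterByExpr with its minimum count of 10. Each gene's counts were tested against expected counts proportional to scaled library size (chi-square), and the residual quasi-dispersion of an intercept-only edgeR fit against its trend (F, one-sided). Both were adjusted by Benjamini-Hochberg over all genes tested, at 0.05. Both were also run on simulated counts with counting error alone or the same dispersion for every gene. These are simpler than the data, so that run does not show the power of the tests here. Earlier work on these data found the test against the trend to have little power. DESeq2 1.42.0 size factors, library totals, no filter, rounding down, thinning and leaving out each replicate were alternatives. The members and lists were chosen with earlier results of these data known. Named genes were the members, genes of the lists with the highest levels, at the floor, or with a role beside a member, and the 10 genes nearest in profile. Some genes of the lists, such as Gpihbp1, Aplnr, Robo4 and Sox18, were picked for naming after their values were seen. A gene of the platelet list is not reported here.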

Additional observations from a re-analysis of the deposited data

Results flagged for a closer look

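Replicate 5 was far from the other cultures for 8 of the 10 endothelial markers. For each gene, the gap between the highest library and the next was divided by the range over all 6, and the quotient was set against the 95% critical value of Dixon's test. The quotient was 0.933 for Cldn5, 0.932 for Tie1, 0.921 for Kdr, 0.908 for Pecam1, 0.838 for Esam, 0.689 for Tek, 0.685 for Cdh5 and 0.672 for Vwf. For the summed CPM of all 10 it was 0.688. Eng and Emcn, at 0.450 and 0.446, stayed under the critical value. In all, 9 of 15 measures examined exceeded it, where a rate of 1 in 20 would give 0.75. In these data 7.69% of all genes above 3 counts in at least 1 library passed it at the high end alone, so no conclusion is drawn from that contrast. The members share libraries, so these are not 9 separate observations.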

How the results depend on the processing

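No paired analysis was possible because all samples belong to a single group. The count of members highest in the same library was 10, under TMM scaling, DESeq2 size factors and thinning to the smallest total, and between 8 and 10 when a replicate was left out; the 8 were found without replicate 5, with replicate 4 then the highest. The number of members beyond counting noise stayed within 1.5 times of 7 in all alternatives run, and that of all genes within 1.5 times of 11444. It was 13488 of 26854 with no filter and 10118 to 11253 with a replicate left out. Beyond the trend, 0 genes were called in every alternative, with 799 to 1468 at an unadjusted p-value under 0.05. Kdr lost its call without replicate 5 (chi-square adjusted p = 0.633). The neighbouring pairs in a constant order numbered 3, and between 1 (without replicate 5) and 4 when a replicate was left out. The log2 ratio of the members to other lists moved when medians of genes replaced sums, from -7.03 to -5.12 for fibroblast genes, from -4.32 to -3.01 for mural genes and from -0.90 to -1.76 for macrophage genes; the cause was not tested. Of the 10 genes nearest in profile, 4 were shared with a pseudocount of 1 and 3 with a minimum mean of 5 CPM. Among the other alternative values for single genes, the 90 mean levels all moved by less than their SD, which replicate 5 widens; without it the means per kb fell from 0.297 to 0.0396 for Cldn5, from 0.320 to 0.103 for Tie1, from 1.12 to 0.458 for Pecam1, from 0.285 to 0.146 for Kdr, from 6.06 to 3.54 for Cdh5, from 1.88 to 1.17 for Esam and from 0.191 to 0.126 for Tek. Of the spread measures, 14 of 81 ratios of highest to lowest replicate moved by over 1.5 times, each when a replicate was left out. Depth limits Cldn5, Tie1 and Tek most, the members with the fewest counts outside replicate 5.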

Other observations

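Genes of the blood-nerve and blood-brain barrier were represented by transporters that other cells also use. Slc2a1, the glucose transporter gene, and Slc7a5, an amino acid transporter gene, had 1070 to 1457 and 1187 to 3964 counts per library, and both were highest in replicate 5. Of the 10 genes in this list, 7 were highest there, beside 29.3% of all genes above 3 counts in at least 1 library. Mfsd2a, the lipid transporter gene of brain endothelium, was at 21.0 to 62.6 CPM and lowest in replicate 5. Abcb1a, an efflux pump gene, was at 1.58, 2.43, 2.79, 4.38, 7.34 and 2.25 CPM, and Foxf2, a pericyte factor gene, had 1, 31, 42, 52, 147 and 23 counts. Slco1a4, an organic anion transporter gene of barrier endothelium, had at most 5 counts in any library.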
